A study of Mus musculus with 12 samples.

Results

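The protocadherin genes of mouse cortex were taken as every row of the count files whose Ensembl identifier maps to a protein-coding symbol that starts with Pcdh in the GENCODE M21 annotation of GRCm38. They numbered 36 of 29879 gene rows, of which 24 belong to the clustered protocadherins (Pcdha, Pcdhb and Pcdhg) and 12 are other protocadherins. Counts were deposited for 12 RNA libraries in 4 groups of 3. SynapTRAP is the eGFP immunoprecipitate from the synaptic (SN) band of a sucrose and percoll gradient, and SNF is the same band with no immunoprecipitation. TRAP is the immunoprecipitate of eGFP-tagged ribosomes from cortex, and WCH is cortex RNA with no immunoprecipitation. All 4 groups came from cortex of mice of the SNAP25 BacTRAP line at postnatal day 21, so the WCH and SNF libraries carry the transgene too. In a bacTRAP line a ribosomal protein tagged with eGFP is expressed from the regulatory sequence of a chosen gene, here the neuronal gene Snap25, so that RNA on the tagged ribosomes can be pulled down. The labels do not say whether the 3 libraries of a group came from separate or pooled animals. In each group library 1 had Xist and almost no Y-linked counts, and libraries 2 and 3 the reverse. Library 1 therefore did not come from the same animals as libraries 2 and 3. The tests see only the variation among these libraries, which between libraries 2 and 3 may be technical.

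Protocadherins are the largest group of cadherins, calcium-dependent adhesion proteins of the cell surface, and most are expressed in the nervous system. The Pcdha, Pcdhb and Pcdhg genes stand side by side in the genome. Each variable exon of the Pcdha and Pcdhg clusters has a promoter of its own and is spliced to constant exons shared by the cluster, whereas each Pcdhb gene is a single exon with no constant region. Neurons choose a few isoforms each, and the proteins mark a cell's own branches by homophilic binding. The non-clustered genes are grouped into the delta-1 protocadherins (Pcdh1, Pcdh7, Pcdh9, Pcdh11x) and the delta-2 protocadherins (Pcdh8, Pcdh10, Pcdh17, Pcdh18, Pcdh19), with Pcdh12, Pcdh15 and Pcdh20 outside them. Several delta-2 proteins bind the WAVE complex, which drives branched actin assembly. As membrane proteins they are translated on the endoplasmic reticulum.

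The promoters of 4 non-clustered genes are shown because Pcdh10, Pcdh17 and Pcdh19, all delta-2, rose by similar amounts in SNF over WCH, while Pcdh15 was the member whose SNF and WCH levels were closest. Each window runs from 250 bases before to 50 bases after the RefSeq start on GRCm38.p6, 5′ to 3′ on the gene's strand. The positions are chr3:45378148-45378447 on the plus strand for Pcdh10, chr14:84443313-84443612 on the plus strand for Pcdh17, chrX:133688944-133689243 on the minus strand for Pcdh19 and chr10:73821617-73821916 on the plus strand for Pcdh15. The RefSeq start used for Pcdh15 lies inside the GENCODE gene, which begins at position 73099342. Capitals mark CGCT on either strand, the core letters of the sequence element shared by the clustered protocadherin promoters.
Pcdh10: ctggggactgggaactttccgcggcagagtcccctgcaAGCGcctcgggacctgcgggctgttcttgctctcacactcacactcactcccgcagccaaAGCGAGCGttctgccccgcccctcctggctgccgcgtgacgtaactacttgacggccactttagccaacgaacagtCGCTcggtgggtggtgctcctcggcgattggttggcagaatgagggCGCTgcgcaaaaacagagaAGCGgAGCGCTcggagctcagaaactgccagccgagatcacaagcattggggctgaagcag
Pcdh17: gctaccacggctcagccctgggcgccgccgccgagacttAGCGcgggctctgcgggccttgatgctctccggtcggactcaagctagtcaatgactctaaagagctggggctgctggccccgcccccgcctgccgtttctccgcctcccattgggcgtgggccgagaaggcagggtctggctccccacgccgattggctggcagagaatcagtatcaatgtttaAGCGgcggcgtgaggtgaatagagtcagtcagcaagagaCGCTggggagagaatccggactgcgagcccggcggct
Pcdh19: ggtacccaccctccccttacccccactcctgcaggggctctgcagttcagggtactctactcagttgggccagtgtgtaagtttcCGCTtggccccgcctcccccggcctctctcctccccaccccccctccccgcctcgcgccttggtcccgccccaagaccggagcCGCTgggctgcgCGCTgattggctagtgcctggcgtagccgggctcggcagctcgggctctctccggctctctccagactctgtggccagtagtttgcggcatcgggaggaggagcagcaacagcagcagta
Pcdh15: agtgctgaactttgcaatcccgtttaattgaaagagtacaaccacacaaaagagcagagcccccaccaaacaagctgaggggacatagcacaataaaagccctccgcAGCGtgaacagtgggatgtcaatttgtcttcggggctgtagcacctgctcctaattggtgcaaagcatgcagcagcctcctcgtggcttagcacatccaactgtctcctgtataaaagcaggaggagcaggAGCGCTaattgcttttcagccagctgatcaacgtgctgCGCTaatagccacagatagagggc

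CGCT was found 8 times in the Pcdh10 window, 3 times each in the Pcdh17 and Pcdh19 windows and 4 times in the Pcdh15 window, where AGCGCT counts as 2 overlapping matches, 1 on each strand. It was present in 9 of 9 matched member promoters outside chromosome 18, with a median of 3 matches, against 61.5% of 27025 promoters of the same length, with a median of 1. The median share of G and C in these promoters was also higher, at 62.3% against 52.7% over all windows. Pcdh20 (43.7%) and Pcdh15 (50.7%) lay below the median of all windows. The letters TATAAA, on either strand, were found in 2 of the 9 (Pcdh8 and Pcdh15) and in 14.2% of all promoters. A match to so short a word is a description of the window and not a binding site.

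Of the 36 genes, 26 lie on chromosome 18 of GRCm38. GENCODE M21 places the identifier of the only Pcdha row (Pcdha11) at 37005203 to 37187657 and the Pcdhb genes at 37264938 to 37524479. That of the only Pcdhg row (Pcdhgc4) lies at 37815079 to 37841873, and all are on the plus strand. These are spans of single Pcdha and Pcdhg genes, and the reads of a row may come from elsewhere in its cluster. Pcdh1 (38185914 to 38212053) and Pcdh12 (38267089 to 38284402) follow on the minus strand. The other 10 lie elsewhere, with Pcdh7 on chromosome 5, Pcdh15 on chromosome 10, Pcdh8, Pcdh9, Pcdh17 and Pcdh20 on chromosome 14, Pcdh10 and Pcdh18 on chromosome 3 and Pcdh11x and Pcdh19 on the X chromosome.

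What the clustered rows can hold differs between the clusters. GENCODE M21 lists 69 protein-coding protocadherins, 14 Pcdha, 22 Pcdhb, 21 Pcdhg and 12 others. The files have 22 of 22 Pcdhb genes but 1 Pcdha row (ENSMUSG00000007440) and 1 Pcdhg row (ENSMUSG00000023036). GENCODE M21 names these Pcdha11 and Pcdhgc4, while the authors' deposited table names them Pcdha2 and Pcdhga9. The 33 genes with no row all have identifiers above the highest one in the files. Each row may therefore hold reads from its whole cluster, and they are called here the Pcdha row and the Pcdhg row, with no isoform assigned. Of the exon bases that GENCODE M21 gives to the identifier of the Pcdha row (Pcdha11 alone), 2499 of 5359 overlap no other gene. For that of the Pcdhg row (Pcdhgc4 alone) it was 3477 of 5596. Among Pcdhb genes the median share of 50-base windows that recur exactly in another gene was 4.48%, and 20 of 22 stayed under 10%. Pcdhb12 was the exception with the highest share, at 64.2%, so its counts are uncertain. For the Pcdha and Pcdhg clusters the windows of all transcripts of the cluster were pooled. The share that recurred in a gene outside the cluster was 18.1% for Pcdha and 13.0% for Pcdhg, with sharing inside the cluster left out. Among the other protocadherins the share was highest for Pcdh7, at 20.4%.

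Gene counts per library were 4368881 to 14335089, of which 1819853 to 7115176 lay outside the mitochondrial genome. Mitochondrial RNA took 39.4% ± 21.8 of gene counts in SynapTRAP, 84.6% ± 2.58 in SNF, 3.84% ± 2.52 in TRAP and 40.5% ± 9.14 in WCH (SD, n = 3 each). Raw counts of a Pcdhb gene that entered the tests were 3 to 386 in a library, of the Pcdha row 950 to 3899, of the Pcdhg row 1979 to 9354 and of another protocadherin 36 to 7076. Of the 36 genes, 34 passed the expression filter. Pcdhb1 had at most 1 count in any library. Pcdh12, a protocadherin of endothelial cells, had 0 to 9 counts. Neither was tested. Levels below are counts per 1000000 (CPM) scaled by the trimmed mean of M-values (TMM), and p-values are Benjamini-Hochberg adjusted values of edgeR's quasi-likelihood test over 13404 genes. A gene was called when its adjusted p was under 0.05.

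Summed levels of all 4 classes averaged highest in SNF and next highest in SynapTRAP, while TRAP averaged above WCH for the Pcdhg row and below it for the other classes. In CPM over the counts outside the mitochondrial genome, the Pcdhg row took 1192, 1315 and 973 in SynapTRAP, 1439, 1493 and 1240.0 in SNF, 527, 557 and 515 in TRAP and 429, 375 and 443 in WCH. The Pcdha row took 396, 548 and 373 in SynapTRAP, 680.3, 911 and 924 in SNF, 207, 303 and 157 in TRAP and 277, 304 and 413 in WCH. The 22 Pcdhb genes together took 407, 466 and 329.6 in SynapTRAP, 543, 597 and 604 in SNF, 215, 178 and 157 in TRAP and 212, 199 and 221 in WCH. In these 3 classes no SNF or SynapTRAP library overlapped WCH, except that the lower Pcdha values of SynapTRAP lay within the WCH range. The 12 other protocadherins summed to 2444 ± 413 in SynapTRAP, 3478 ± 510.4 in SNF, 1336 ± 205 in TRAP and 1376 ± 87.9 in WCH (SD, n = 3 each). With mitochondrial counts in the denominator the order changed, because most SNF counts were mitochondrial. The Pcdhg row then averaged 728 ± 348 in SynapTRAP, 214 ± 45.7 in SNF, 513 ± 34.3 in TRAP and 246 ± 34.6 in WCH, in CPM over all gene counts, and SNF averaged below WCH in each of the 4 classes.

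**Figure D1:**
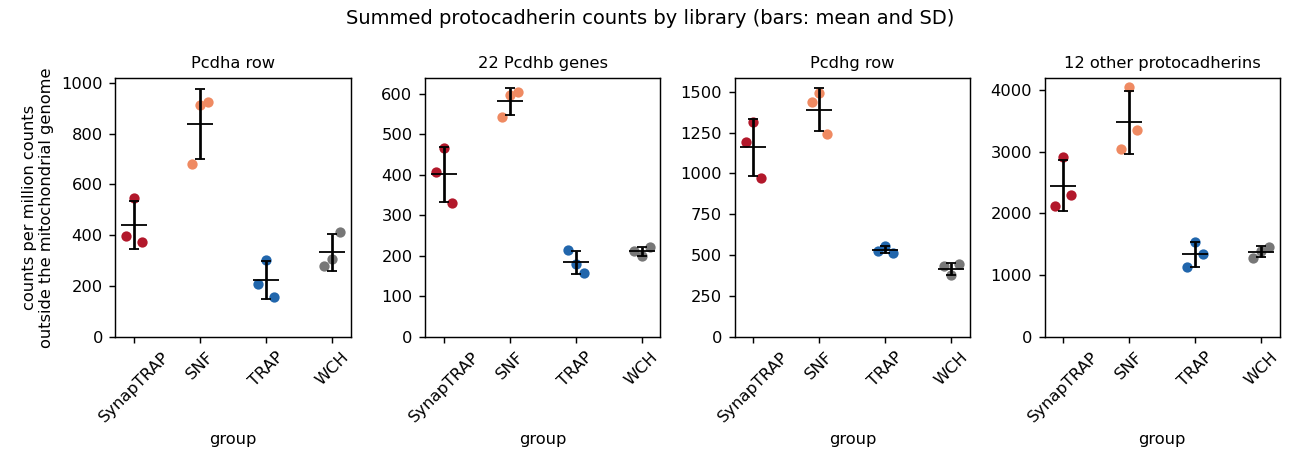
Summed level of each protocadherin class in CPM over the counts outside the mitochondrial genome (y axis, from 0), by group. Points are libraries and bars are the mean and SD of 3; SNF averages highest in each class, with 1391 for the Pcdhg row against 416 in WCH.

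Per kilobase of exon bases that no other gene shares, the non-clustered genes differed widely among themselves. In WCH, Pcdh9, a delta-1 adhesion protein, stood highest of them with a level of 12.4 ± 0.889 CPM per kb, followed by Pcdh1 with 10.5 ± 0.320 (SD, n = 3). Pcdh10 with 7.40 ± 0.930, Pcdh7 with 7.29 ± 0.696 and Pcdh17 with 6.34 ± 0.510 CPM per kb followed, and Pcdh10 and Pcdh7 did not differ beyond their spread. In SNF the order began with Pcdh1 at 51.5 ± 16.8, Pcdh9 at 37.7 ± 8.89, Pcdh7 at 28.1 ± 5.49 and Pcdh10 at 23.3 ± 1.72 CPM per kb, and here the ranges of 1 SD of neighbours overlapped. Pcdhb genes were low, with a median over the 22 genes of 2.28 CPM per kb in SynapTRAP, 2.83 in SNF, 0.891 in TRAP and 0.766 in WCH. The Pcdha and Pcdhg rows reached 53.6 ± 12.6 and 48.2 ± 4.09 CPM per kb in WCH when divided by the bases unique to each row. Divided by the exon bases of the whole cluster they reached 3.28 ± 0.772 and 2.45 ± 0.208, so their place in the order cannot be fixed.

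SNF was compared with WCH to show which protocadherin RNAs the synaptic band holds at a higher level than cortex RNA. Protocadherins of each class were higher in SNF. Of 34 tested, 32 rose and none fell, whereas 20.6% of all tested genes rose and 16.5% fell. The risen genes were the Pcdha row, the Pcdhg row, 20 of 21 tested Pcdhb genes and 10 of 11 tested other protocadherins. The median log2 fold change was 1.80 over the 34 members, a 3.49-fold difference, against −0.25 over all tested genes. It was 1.86 over the clustered genes, with a range of 1.39 to 2.55, and 1.60 over the others, with a range of 0.14 to 2.29. For 0 members lower, the count at an unadjusted p under 0.05 was also 0, in edgeR and in DESeq2.

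Among the clustered genes the Pcdhg row had the lowest adjusted p. It had 754, 824 and 637 CPM in SNF, against 168, 153 and 181 CPM in WCH, with a log2 fold change of 2.14 (SE 0.23, adjusted p = 2.32e-06). The Pcdha row had 356, 503 and 475 CPM in SNF, against 109, 124 and 169 CPM in WCH, with a log2 fold change of 1.73 (SE 0.25, adjusted p = 2.28e-05). Neither row had an SNF library near its WCH range. Pcdhb2 and Pcdhb10 had the largest rises of the Pcdhb cluster, 2.55 (SE 0.56) and 2.53 (SE 0.42) on the log2 scale. Pcdhb2, which encodes a single-exon homophilic adhesion protein like all of its cluster, had 6.04, 16.8 and 3.89 CPM in SNF and 1.31, 2.37 and 0.733 CPM in WCH. Pcdhb10 had 6.62, 7.71 and 4.14 CPM in SNF and 1.31, 1.08 and 0.733 CPM in WCH. Both were low genes whose groups did not overlap but whose SNF libraries spread widely. The 3 most abundant Pcdhb genes by counts, Pcdhb17, Pcdhb16 and Pcdhb19, rose by 2.01, 1.80 and 1.57. Pcdhb17 had 34.0, 46.3 and 45.004 CPM in SNF and 9.73, 9.87 and 11.5 CPM in WCH. Pcdhb3 did not pass the test, with a log2 fold change of 1.93 (SE 0.76, adjusted p = 0.0692) and 8.63, 21.01 and 4.87 CPM in SNF against 2.08, 4.39 and 2.48 CPM in WCH.

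Among the delta-1 genes, Pcdh1 rose most. It had 378, 623 and 358 CPM in SNF and 89.2, 94.5 and 93.6 CPM in WCH, with a log2 fold change of 2.29 (SE 0.28, adjusted p = 4.12e-06). Pcdh7 had 201, 288 and 218 CPM in SNF and 54.5, 63.0 and 65.6 CPM in WCH, a log2 fold change of 1.95 (SE 0.24). Every SNF library lay above every WCH library for both genes. Pcdh9 and Pcdh11x rose by 1.60 and 1.47. Pcdh9 had 199, 319 and 248 CPM in SNF and 78.7, 90.6 and 83.0 CPM in WCH. The X-linked Pcdh11x had 58.7, 83.2 and 68.8 CPM in SNF and 18.6, 27.2 and 30.4 CPM in WCH. The 4 delta-1 genes therefore rose together, with log2 fold changes between 1.47 and 2.29.

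The delta-2 genes also rose. Pcdh10, whose protein recruits the WAVE complex to cell contacts, had 339.5, 394 and 365 CPM in SNF and 100.3, 119.8 and 129 CPM in WCH, a log2 fold change of 1.65 (SE 0.23, adjusted p = 1.32e-05). Pcdh17, another partner of the WAVE complex, had 196, 241 and 219 CPM in SNF and 75.2, 83.9 and 88.2 CPM in WCH, a log2 fold change of 1.41 (SE 0.21). Pcdh19, the gene of a human epilepsy that affects mainly heterozygous females, had 108, 146 and 118 CPM in SNF and 37.4, 43.4 and 46.5 CPM in WCH, a log2 fold change of 1.55 (SE 0.23). For these 3 genes, whose promoters are shown above, the groups did not overlap. Pcdh8, which in rat neurons is induced by activity and promotes internalisation of N-cadherin, had 34.5, 42.3 and 50.4 CPM in SNF and 11.3, 9.26 and 20.2 CPM in WCH, a log2 fold change of 1.65 (SE 0.28). Pcdh18 had 15.0, 18.1 and 13.1 CPM in SNF and 3.55, 3.78 and 4.58 CPM in WCH, a log2 fold change of 1.95 (SE 0.34). Neither gene had overlapping groups. Pcdh20 rose by 1.55 (SE 0.27), with 46.3, 60.4 and 39.9 CPM in SNF and 16.7, 15.8 and 17.6 CPM in WCH. Pcdh15, whose protein forms the lower end of the tip link of hair cells, had 16.4, 14.4 and 22.4 CPM in SNF and 16.1, 16.4 and 16.0 CPM in WCH. Its log2 fold change was 0.14 (SE 0.34, adjusted p = 0.773), its groups overlapped, and its sign turned to −0.25 when counts outside the mitochondrial genome were used as library sizes.

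**Figure D2:**
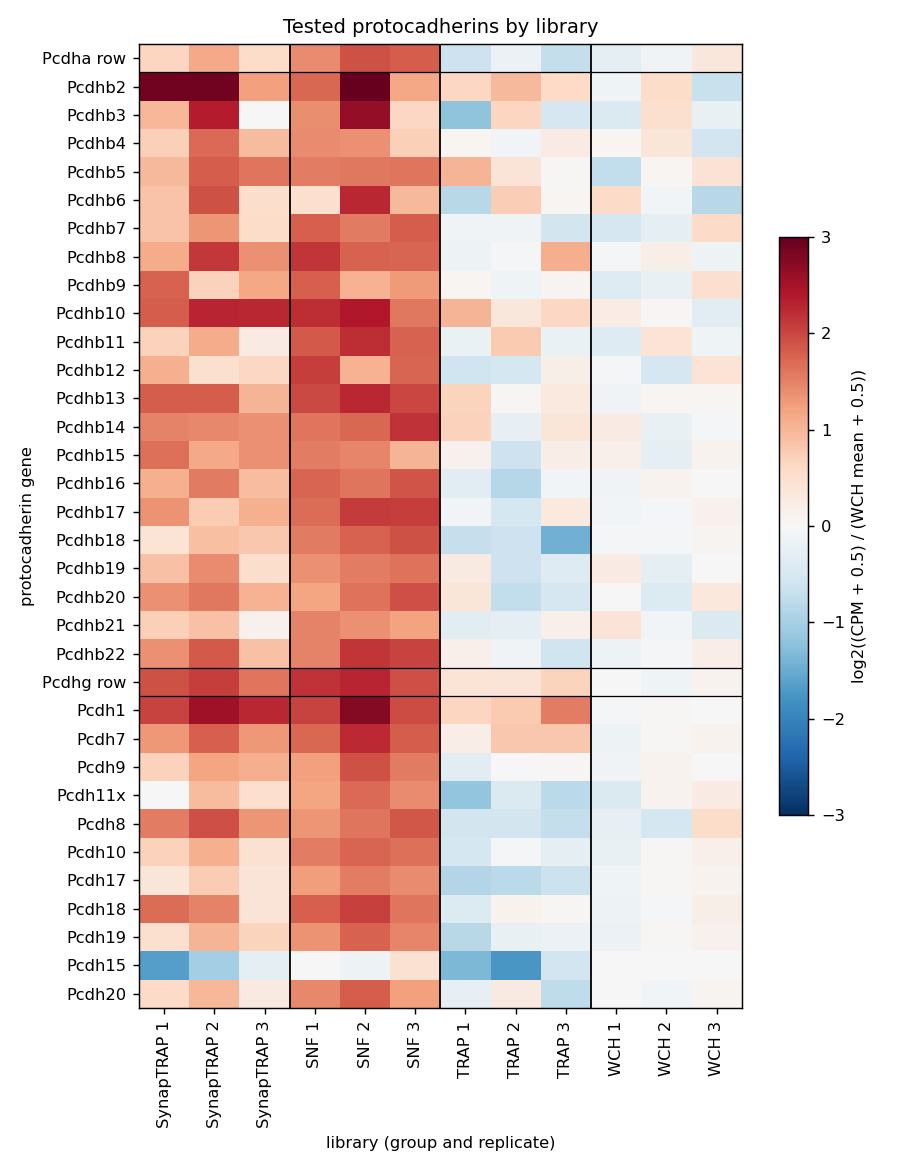
Colour gives log2 of (CPM + 0.5) over (mean WCH CPM + 0.5) for each of the 34 tested protocadherins (rows; Pcdhb genes in their order along the chromosome) in each of the 12 libraries (columns, SynapTRAP at the left and WCH at the right). SNF and SynapTRAP columns are red for nearly every gene, and Pcdh15 is the exception, pale in SNF and blue in SynapTRAP and TRAP.

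Scaling moved the median of all genes in this comparison. It was −0.25 with TMM, −0.12 with relative log expression factors and −0.64 with total counts outside the mitochondrial genome, and the members' median was 1.80, 1.93 and 1.41 in the same order. With those totals 30 members rose, and with relative log expression factors 32. Every SNF library lay above every WCH library for 32 of 34 members, which held for 25.6% of all genes. The authors' deposited table of genes enriched in the synaptic fraction lists 33 of the 36 members among its 3508 genes, with log2 fold changes of 1.53 to 3.05 whose direction the header does not state. Pcdh15, Pcdhb1 and Pcdh12 are the members outside that table. The authors' deposited tables of local and somatic candidates, of 109 and 275 genes, list 0 members.

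Other cadherins rose beside the protocadherins, while the proteins that cadherins act through did not do so as a group. Of the classic cadherins 15 of 18 tested rose and none fell, with a median log2 fold change of 1.4995. Among them was Cdh2 (N-cadherin, the main cadherin of synaptic junctions), at 2.14 (SE 0.23), and Cdh5 (vascular endothelial cadherin), at 2.45 (SE 0.78). Of the large and divergent cadherins 10 of 15 rose and none fell, with a median of 1.86, led by Clstn3, a synaptic calsyntenin, at 2.40 (SE 0.27) and Celsr2, a seven-pass cadherin of planar polarity, at 2.30 (SE 0.25). Of the catenins and cadherin linkers none of 11 rose and 1 fell, Afdn (afadin), at −0.67 (SE 0.24), with a list median of 0.00. In the WAVE complex 1 of 10 rose and 2 fell, Wasf1 at −1.08 (SE 0.24) and Abi1 at −0.65 (SE 0.23). The list of signalling and cleavage partners had 5 of 16 higher and 5 lower. Ncstn and Psenen, subunits of the gamma-secretase that cleaves protocadherin tails, rose by 1.93 and 1.73. Of the regulators of the clustered promoters none of 15 rose and 2 fell, the DNA methyltransferase Dnmt1 at −0.81 (SE 0.28) and the insulator protein Ctcf at −0.76 (SE 0.29).

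Markers of non-neuronal cells were also higher in SNF. Of the astrocyte markers 9 of 10 rose, with summed levels of 12879 to 17768 CPM in SNF and 2087 to 2656 CPM in WCH. Microglial markers rose in 10 of 10 cases, to 324 to 666 CPM in SNF against 81.4 to 101 CPM in WCH, and fibroblast and meningeal markers in 8 of 8, with 189 to 567 CPM in SNF and 61.4 to 81.1 CPM in WCH. Markers of oligodendrocytes rose in 6 of 10 cases, of their precursors in 4 of 7, of mural cells in 4 of 7, of endothelial cells in 1 of 9 and of choroid plexus and ependyma in 3 of 5, and none of these fell. The 1 endothelial marker was Cdh5, already counted above among the classic cadherins. Summed endothelial markers were low, at 15.5 to 19.9 CPM in SNF and 7.15 to 9.80 CPM in WCH. Neuronal markers were split, with 3 of 12 higher (Syp, Syt1, Slc17a7) and 3 lower (Gap43, Snap25, Eno2), and a summed level of 9321 to 10673 CPM in SNF and 9756 to 10595 CPM in WCH. No marker was at 0 throughout a group. The part of these cell types in the protocadherin levels was not tested. Such bulk libraries cannot tell more material from a cell type apart from more RNA in that material.

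SynapTRAP was compared with TRAP to set tagged-ribosome RNA of the synaptic band beside that of cortex. The groups compared share no library with SNF and WCH. Both comparisons came from 1 fit of all 12 libraries with a shared spread. Same-numbered SynapTRAP and SNF libraries also deviated together (correlations of 0.218 to 0.378), so the comparisons are not independent. Of 34 members 29 rose and none fell, against 21.6% and 18.1% of all tested genes. The 29 were the Pcdha row, the Pcdhg row, 17 of 21 Pcdhb genes and 10 of 11 others, and all 29 also rose in SNF against WCH. The median log2 fold change was 1.31, 1.39 over the clustered genes and 1.14 over the others, against −0.02 over all genes. As above, 0 members fell at an unadjusted p under 0.05 in edgeR or DESeq2. Every SynapTRAP library lay above every TRAP library for 28 of 34 members and for 21.4% of all genes.

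Pcdh8 had the largest difference of this comparison. It had 40.2, 53.3 and 34.8 CPM in SynapTRAP and 9.18, 9.15 and 8.14 CPM in TRAP, a log2 fold change of 2.28 (SE 0.28, adjusted p = 3.09e-06). The Pcdhg row had 631, 709.8 and 514 CPM in SynapTRAP and 221, 218 and 266 CPM in TRAP, a log2 fold change of 1.39 (SE 0.23, adjusted p = 6.88e-05). Its libraries were separated by more than their spread, as were those of Pcdh8. The Pcdha row rose by 1.29 (SE 0.25), with 209.5, 296 and 197 CPM in SynapTRAP and 86.9, 119 and 81.4 CPM in TRAP. Pcdhb2 and Pcdhb22 had the largest rises of the Pcdhb genes, 1.97 (SE 0.50) and 1.74 (SE 0.34). Pcdhb22 had 8.502, 11.99 and 5.90 CPM in SynapTRAP and 3.399, 2.72 and 1.80 CPM in TRAP. Pcdh18 and Pcdh11x rose by 1.49 and 1.35, Pcdh17 and Pcdh1 by 1.30 and 1.24, and Pcdh19, Pcdh9 and Pcdh10 by 1.14, 1.09 and 1.03. Pcdh18 had 13.9, 12.1 and 5.31 CPM in SynapTRAP and 2.85, 4.35 and 4.11 CPM in TRAP, and its groups did not overlap.

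The lowest of the called differences were those of Pcdh7 and Pcdh20, both 0.86 (SE 0.24 and 0.26). Without TRAP replicate 1 Pcdh7 stood at 0.65 and did not pass. Pcdh20, with 25.0, 33.5 and 20.3 CPM in SynapTRAP and 13.9, 20.1 and 9.68 CPM in TRAP, did not pass without TRAP replicate 1 (0.80), TRAP replicate 3 (0.60) or SynapTRAP replicate 2 (0.64), nor with total counts outside the mitochondrial genome as library sizes (0.53). The 5 members that did not pass were Pcdh15, Pcdhb3, Pcdhb6, Pcdhb11 and Pcdhb21, with log2 fold changes of 0.26, 1.79, 1.48, 0.70 and 0.86. Pcdh15 had 4.81, 7.66 and 13.4 CPM in SynapTRAP and 6.05, 4.44 and 10.7 CPM in TRAP, and its groups overlapped. Same-numbered SynapTRAP and TRAP libraries deviated together (correlations of 0.104 to 0.144), and with the replicate number as a block 30 members rose, Pcdhb3 joining them at 1.71 (SE 0.37, adjusted p = 0.000638).

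Cadherins and markers moved in this comparison too. Of the classic cadherins 10 of 18 rose and 1 fell, with Cdh19, a cadherin of glia of the oligodendrocyte and Schwann lineages, at 2.93 (SE 0.39) and Cdh15, the muscle cadherin, at −2.53 (SE 0.94). Of the large cadherins 10 of 15 rose and none fell, with Celsr1 at 2.05 (SE 0.48) and Fat1 at 1.76 (SE 0.23). The catenins and linkers had 4 of 11 higher, with Vcl (vinculin) at 1.80 and Ctnna1 (alpha-catenin) at 1.27. The WAVE complex had 3 of 10 higher, among them Wasf2 at 1.74 and Abi3 at 1.67, and 2 lower. The signalling and cleavage list had 6 of 16 higher and 3 lower, led by the kinase Rock1 at 2.20 and the protease Adam10, which sheds cadherin ectodomains, at 1.49. The promoter regulators had 4 of 15 higher and 1 lower, with the cohesin subunit Rad21 at 1.03 and Wiz at 0.94. Astrocyte markers rose in 10 of 10 cases, with summed levels of 8455 to 14477 CPM in SynapTRAP and 521 to 1196 CPM in TRAP, and microglial markers in 10 of 10, with 202 to 450.4 CPM in SynapTRAP and 25.9 to 51.8 CPM in TRAP. Of 12 neuronal markers 3 rose and 5 fell, with sums of 7113 to 9987 CPM in SynapTRAP and 9801 to 14080 CPM in TRAP. The part of glial RNA in the protocadherin differences was not tested.

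**Figure D3:**
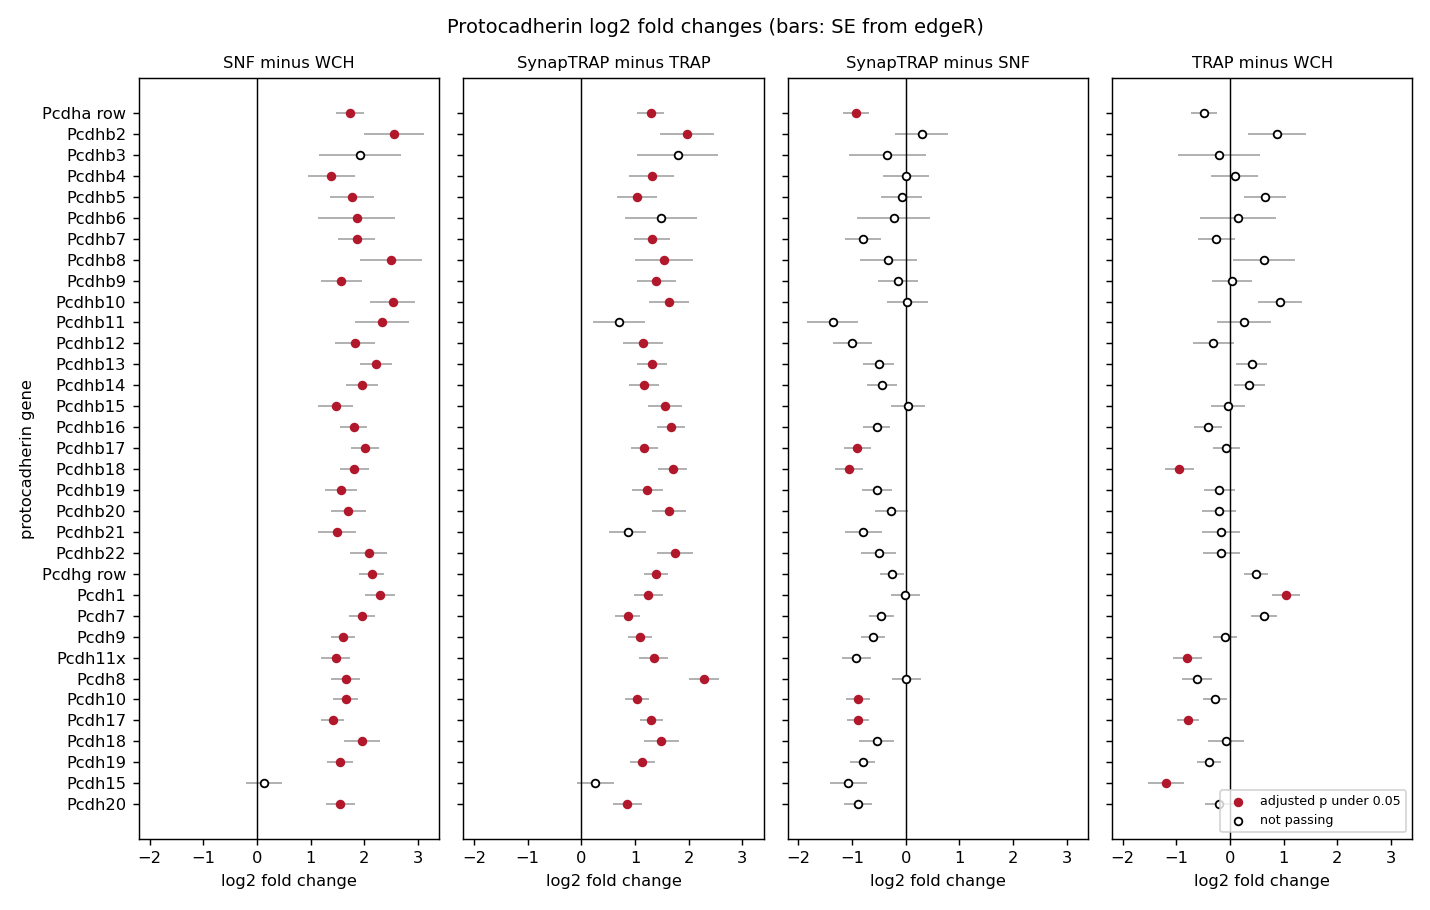
Log2 fold change (x axis) of each tested protocadherin (y axis) in 4 comparisons, with bars of 1 SE from edgeR; filled points have an adjusted p under 0.05. In the 2 left panels nearly all points lie right of 0 and Pcdh15 stands apart near 0; in the 2 right panels most points lie near 0 or left of it.

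SynapTRAP was compared with SNF to show which protocadherin RNAs the immunoprecipitation from the synaptic band retained at a lower or higher level than the band itself. Most members had lower levels in SynapTRAP, and 5 of 34 fell, against 1.79% of all tested genes. None rose, against 2.29%, and 0 members were higher at an unadjusted p under 0.05 in edgeR or DESeq2. The 5 were the Pcdha row, Pcdhb18, Pcdhb17, Pcdh10 and Pcdh17. The median log2 fold change of the 34 members was −0.52, against 0.03 over all genes. It was negative for 29 members with TMM, 33 with relative log expression factors and 30 with total counts outside the mitochondrial genome, Pcdh8, Pcdhb4, Pcdhb10 and Pcdhb15 changing sign between scalings. Every SynapTRAP library lay below every SNF library for 16 members and for 10% of all genes.

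Pcdhb18 had 11.9, 17.1 and 15.9 CPM in SynapTRAP and 27.0, 31.4 and 34.5 CPM in SNF, a log2 fold change of −1.05 (SE 0.26, adjusted p = 0.0258). The Pcdha row had 209.5, 296 and 197 CPM in SynapTRAP and 356, 503 and 475 CPM in SNF, at −0.93 (SE 0.25, adjusted p = 0.036). Both had no overlap between groups. Pcdhb17 had 26.9, 17.8 and 22.1 CPM in SynapTRAP and 34.0, 46.3 and 45.004 CPM in SNF, at −0.91 (SE 0.25, adjusted p = 0.0435). Pcdh10 had 188, 244 and 159.8 CPM in SynapTRAP and 339.5, 394 and 365 CPM in SNF, at −0.89 (SE 0.22, adjusted p = 0.0271). Pcdh17 had 105, 141 and 108 CPM in SynapTRAP and 196, 241 and 219 CPM in SNF, also at −0.89 (SE 0.21, adjusted p = 0.02). In these 3 genes as well each SynapTRAP library was below each SNF library. Several members that did not pass had values as low, among them Pcdhb11 at −1.36 (SE 0.48, adjusted p = 0.113), Pcdhb12 at −0.99 (SE 0.36, adjusted p = 0.13), Pcdh11x at −0.92 (SE 0.27, adjusted p = 0.052), Pcdh20 at −0.89 (SE 0.26, adjusted p = 0.0572) and Pcdh19 at −0.80 (SE 0.23, adjusted p = 0.0505). Others were near 0. Pcdh1 had 376, 537 and 442 CPM in SynapTRAP and 378, 623 and 358 CPM in SNF, a log2 fold change of −0.01 (SE 0.27), while Pcdh8 stood at 0.01 (SE 0.27) and the Pcdhg row at −0.26 (SE 0.22). Pcdh15 stood at −1.07 (SE 0.35, adjusted p = 0.0844).

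These calls lay close to the threshold. Same-numbered SynapTRAP and SNF libraries deviated together (correlations of 0.218 to 0.378), and with the replicate number as a block 9 members fell, the same 5 with Pcdh11x (−0.95), Pcdh15 (−1.10), Pcdh19 (−0.81) and Pcdh20 (−0.90). Without the block, 0 to 7 members fell when 1 library was left out: 0 without any 1 SNF library or without SynapTRAP replicate 1, and 3 without SynapTRAP replicate 3. With only these groups in the fit 1 fell. Of the pathway lists, the catenins had 2 of 11 higher, Pkp4 at 1.25 (SE 0.28) and Jup (plakoglobin) at 1.20 (SE 0.31), and 1 classic cadherin of 18 (Cdh12, −1.22) and 1 large cadherin of 15 (Fat3, −0.95) fell. The WAVE complex had no call among 10. Ptk2b, a kinase bound by clustered protocadherins, rose by 0.96, and 2 of 15 promoter regulators rose (Dnmt1 at 1.25 and Wiz at 1.02). Of the markers, 2 of 10 oligodendrocyte genes fell (Tspan2 at −1.11 and Mal at −1.09), as did 1 of 10 microglial genes (P2ry12 at −1.23), and 1 of 12 neuronal genes rose (Nefl at 1.02). No astrocyte marker of 10 and none of the other lists passed in either direction. Summed oligodendrocyte markers were 8870 to 21807 CPM in SynapTRAP and 7368 to 9802 CPM in SNF, and microglial markers 202 to 450.4 CPM in SynapTRAP and 324 to 666 CPM in SNF. The part of these cells in the members' differences was not tested.

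TRAP was compared with WCH to describe tagged-ribosome RNA of whole cortex. Here the protocadherins moved in both directions. Of 34 members 1 rose and 4 fell, against 11.1% and 10.9% of all tested genes, so the share of members called lower was near that of all genes. The median log2 fold change was −0.13, against −0.01 over all genes. Pcdh1 rose, with 144, 159 and 269 CPM in TRAP and 89.2, 94.5 and 93.6 CPM in WCH, at 1.04 (SE 0.27, adjusted p = 0.00844). Its rise leaned on TRAP replicate 3, without which it stood at 0.75 (SE 0.27, adjusted p = 0.0673). Pcdh7 had 69.7, 107 and 107 CPM in TRAP and 54.5, 63.0 and 65.6 CPM in WCH, at 0.63 (SE 0.24, adjusted p = 0.0566), and did not pass.

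Pcdh15, Pcdhb18, Pcdh11x and Pcdh17 fell. Pcdh15 had 6.05, 4.44 and 10.7 CPM in TRAP and 16.1, 16.4 and 16.0 CPM in WCH, at −1.19 (SE 0.34, adjusted p = 0.0144). Pcdhb18 had 5.30, 5.53 and 2.91 CPM in TRAP and 8.41, 8.65 and 9.44 CPM in WCH, at −0.94 (SE 0.27, adjusted p = 0.0164). Pcdh17 had 44.9, 46.6 and 52.2 CPM in TRAP and 75.2, 83.9 and 88.2 CPM in WCH, at −0.78 (SE 0.21, adjusted p = 0.0101). In all 3 the TRAP libraries lay below the WCH libraries. Pcdh11x had 10.9, 18.6 and 14.4 CPM in TRAP and 18.6, 27.2 and 30.4 CPM in WCH, at −0.80 (SE 0.27, adjusted p = 0.0372). Each of the 4 lost its call without at least 1 library. Pcdhb18 stood at −0.96 and −0.89 without WCH replicates 2 and 3 and at −0.67 without TRAP replicate 3. Pcdh15 stood at −1.06 and −0.92 without TRAP replicates 1 and 2, and Pcdh17 at −0.73 without WCH replicate 3. Pcdh11x stood at −0.75 and −0.65 without WCH replicates 2 and 3, at −0.60 without TRAP replicate 1 and at −0.75 without TRAP replicate 3.

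The remaining non-clustered genes did not pass in TRAP against WCH. Pcdh8 stood at −0.61 (SE 0.27), Pcdh19 at −0.39, Pcdh10 at −0.27, Pcdh20 at −0.20, Pcdh9 at −0.09 and Pcdh18 at −0.08. The Pcdhg row stood at 0.49 (SE 0.22, adjusted p = 0.12), with each TRAP library above each WCH library, and the Pcdha row at −0.48 (SE 0.25, adjusted p = 0.164). Of the other cadherins, 3 of 18 classic ones rose and 2 fell, with Cdh13 at 0.95 and Cdh19 at −1.20, and 2 of 15 large ones rose, Clstn3 at 1.17 and Clstn1 at 1.09. The catenins had Jup higher, at 1.23, the WAVE complex had Abi2 lower, at −0.71, the signalling list had 1 of 16 higher and 3 lower, among them Rock1 at −1.75 and Marcks at −1.15, and the promoter regulators had 3 of 15 higher and 1 lower, with Trim28 at 1.03 and Stag1 at −0.81. Of the markers, 8 of 10 astrocyte, 6 of 10 oligodendrocyte and 4 of 10 microglial genes fell and 5 of 12 neuronal genes rose. Summed astrocyte markers were 521 to 1196 CPM in TRAP and 2087 to 2656 CPM in WCH, and microglial markers 25.9 to 51.8 and 81.4 to 101 CPM. Oligodendrocyte sums overlapped, with 528 to 7106 CPM in TRAP and 2756 to 3535 CPM in WCH. Endothelial markers had 0 calls among 9, with sums of 6.34 to 40.7 CPM in TRAP and 7.15 to 9.80 CPM in WCH. TRAP was therefore not lower in every non-neuronal list.

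The immunoprecipitation effects in the synaptic band and in cortex were compared as SynapTRAP minus SNF less TRAP minus WCH. No member was called in either direction, against 0.507% of all genes higher and 0.358% lower. The median log2 value of the 34 members was −0.49, against 0.07 over all genes. Values were negative for 31 members with TMM, 32 with relative log expression factors and 28 with total counts outside the mitochondrial genome. At an unadjusted p under 0.05 edgeR had 0 members higher and 6 lower (Pcdh7, Pcdh1, Pcdhb11, Pcdhb17, Pcdhb13 and the Pcdhg row), and DESeq2 had 0 higher and 10 lower, of which 3 passed adjustment (Pcdh7, Pcdh1 and the Pcdhg row). The value was −1.09 (SE 0.33, adjusted p = 0.0993) for Pcdh7, −1.05 (SE 0.38, adjusted p = 0.15) for Pcdh1 and −0.74 (SE 0.32, adjusted p = 0.219) for the Pcdhg row. With the replicate number as a block Pcdh7 passed, at −1.07 (SE 0.30, adjusted p = 0.0488). Of the pathway genes Rock1 was called higher, at 2.10, and Cdh18 lower, at −1.39.

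Within the clusters, the ratio of the Pcdhg row to the Pcdha row was higher after immunoprecipitation. The ratio of raw counts, which needs no scaling between libraries, was 3.01, 2.40 and 2.61 in SynapTRAP and 2.12, 1.64 and 1.34 in SNF. It was 2.54, 1.84 and 3.27 in TRAP and 1.55, 1.24 and 1.07 in WCH. In both pairs each immunoprecipitate lay above each of its inputs, and within replicate numbers 1, 2 and 3 the SynapTRAP ratio was 1.42, 1.46 and 1.95 times the SNF ratio. The mean log2 difference was 0.67 between SynapTRAP and SNF and 0.97 between TRAP and WCH. Each had p = 0.1 in a two-sided exact permutation test, the smallest that 3 against 3 libraries allow. All permutation tests here treated libraries as unpaired, although same-numbered SynapTRAP libraries were taken as paired with those of SNF and of TRAP. Between SynapTRAP and TRAP the difference was 0.10 (exact permutation p = 0.8), and between SNF and WCH 0.39 (exact permutation p = 0.2), with overlapping groups in both. This ratio was 1 of 2 tested in 4 comparisons each, and no p could pass an adjustment. The ratio was examined after the levels were known.

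The other ratio, clustered over other protocadherins, varied less. Clustered genes took 45.01% ± 3.21 of member counts in SynapTRAP, 44.8% ± 2.04 in SNF, 41.4% ± 3.91 in TRAP and 41.0% ± 2.07 in WCH (SD, n = 3 each). The log2 difference of the clustered to other ratio was 0.01 for SynapTRAP against SNF, 0.02 for TRAP against WCH, 0.23 for SNF against WCH and 0.21 for SynapTRAP against TRAP. Only SNF and WCH did not overlap (exact permutation p = 0.1). The exact permutation p was 1.0 for SynapTRAP against SNF, 1.0 for TRAP against WCH and 0.3 for SynapTRAP against TRAP.

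**Figure D4:**
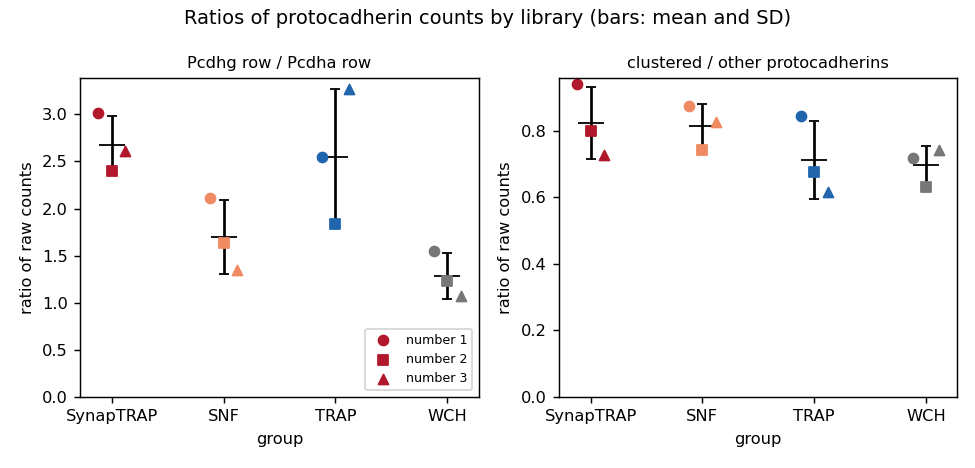
Ratio of raw counts (y axis, from 0) of the Pcdhg row to the Pcdha row (left) and of clustered to other protocadherins (right) in each library, by group; marker shape gives the replicate number and bars the mean and SD of 3. On the left SynapTRAP (2.40 to 3.01) lies above SNF (1.34 to 2.12) and TRAP (1.84 to 3.27) above WCH (1.07 to 1.55), while on the right only SNF and WCH are apart.

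Within each group, 3 low-count Pcdhb genes were highest in the library of replicate number 2, a pattern noticed in these libraries and then tested on the same libraries. Pcdhb3 had 6.50, 17.2 and 2.95 CPM in SynapTRAP replicates 1 to 3, 8.63, 21.01 and 4.87 in SNF, 1.02, 4.98 and 1.97 in TRAP and 2.08, 4.39 and 2.48 in WCH, with number 2 highest each time. Its neighbour Pcdhb2 had 14.04, 14.11 and 4.13 CPM in SynapTRAP, 6.04, 16.8 and 3.89 in SNF, 2.52, 3.35 and 2.48 in TRAP and 1.31, 2.37 and 0.733 in WCH. Pcdhb11 was the other member highest in number 2 throughout, which held for 2.13% of tested genes. A test of the number over the 4 groups in the blocked edgeR fit called 45 of 13404 genes (0.336%), among them Pcdhb3 (adjusted p = 0.00568, log2 difference of number 2 minus number 1 of 1.46). Pcdhb2 had an adjusted p of 0.105, and no other member passed. The number-1 library of every group had 10.9 to 177 CPM of Xist and at most 0.288 CPM summed over Kdm5d, Uty, Ddx3y and Eif2s3y, whereas numbers 2 and 3 had at most 0.906 CPM of Xist and 33.4 to 93.3 CPM of these Y-linked genes. Among X-linked members, Pcdh11x and Pcdh19 had adjusted p of 0.203 and 0.483 for the number.

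**Figure D5:**
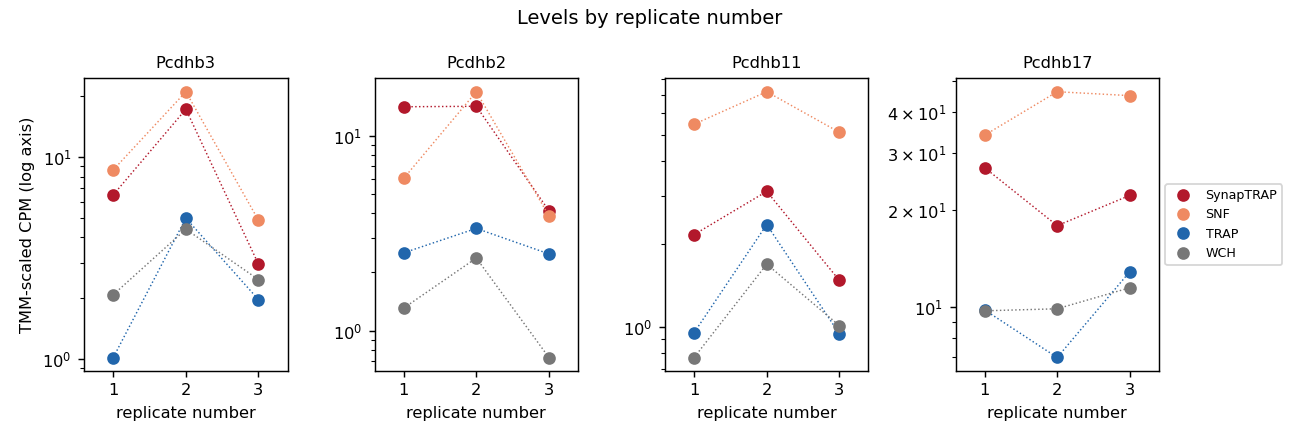
TMM-scaled CPM (log y axis) of Pcdhb3, Pcdhb2, Pcdhb11 and, for comparison, Pcdhb17, by replicate number (x axis), with 1 line for each group. Pcdhb3, Pcdhb2 and Pcdhb11 are highest at number 2 in every group, while the lines of Pcdhb17 share no peak. Pcdhb2 in SynapTRAP is nearly level between numbers 1 and 2 (14.04 and 14.11 CPM).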

How the data were processed

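Integer read counts per gene, 1 file a library, are as the authors deposited them. The submitters' processing notes name Bowtie2, STAR, HTSeq and edgeR; no version, genome build, annotation or strand setting is given in the sources used here, so reads of overlapping or antisense genes cannot be told apart. Lines for reads counted to no gene held 19.3% to 58.3% of a library's reads and were left out. Per the file headers, the authors' deposited tables hold log2 fold changes, p-values and false discovery rates of selected genes.

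The 4 groups were modelled in 1 fit with edgeR 4.0.16 under R 4.3.3. TMM scaling, filterByExpr and the robust quasi-likelihood test were used, and DESeq2 1.42.0 was an alternative. The edgeR test was also run on simulated counts with changes placed in TRAP alone. That run did not examine the scaling of SNF. Spearman correlations between replicates were 0.946 to 0.977. Same-numbered libraries were taken as paired where every correlation of their deviations from group means was over 0.1, a sign from the data and not from the labels. This held for SynapTRAP with SNF (0.218 to 0.378) and with TRAP (0.104 to 0.144). Named were every non-clustered member, the 3 most abundant of each cluster, the 2 largest called changes each way per cluster and comparison, and up to 2 called genes per pathway list; other names were chosen after their values were seen. The members and gene lists were chosen with earlier results of these data known. Alternatives were other scalings, no filter, a replicate block, DESeq2, fewer groups and each library left out. Promoters came from RefSeq (GRCm38.p6), matched by symbol.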

Additional observations from a re-analysis of the deposited data

How the results depend on the processing

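No called value of a member named by the stated rule reversed under any alternative run. The other called values were not followed for reversal under each run. Sign changes between scalings of members that did not pass are given above for SNF against WCH and for SynapTRAP against SNF. Of 32 members higher in SNF than WCH, 30 were called under every setting run, and of 29 higher in SynapTRAP than TRAP, 22. The counts ran from 30 to 33 and from 25 to 31 with 1 library left out. Results near the threshold moved. Members lower in SynapTRAP than SNF were 5, but 8 with relative log expression factors, 9 with no expression filter, 9 with the replicate block, 10 with DESeq2, 1 with only the groups compared and 0 to 7 with 1 library left out. Members higher in TRAP than WCH were 1, but 2 with the replicate block, 3 with DESeq2, 3 with only the groups compared and 0 to 2 with 1 library left out; those lower were 4, and 1 to 4 with 1 library left out. For the difference of immunoprecipitation effects, members lower were 0, but 1 with the replicate block, 3 with DESeq2 and 0 to 1 with 1 library left out. Fewer libraries and fewer residual degrees of freedom enter the settings that leave out a library or a group; the cause of the other moves was not tested. By the rule of every correlation over 0.1, same-numbered libraries were not taken as paired for SNF with WCH (0.065 to 0.165) or TRAP with WCH (−0.015 to 0.063). Missing that threshold does not show that they were unpaired. The block changed no other count by over 1.5 times. With all gene counts as denominator, mean CPM in SynapTRAP, SNF and WCH were 277, 131 and 193 for the Pcdha row, 253, 89.8 and 125 for Pcdhb, 728, 214 and 246 for the Pcdhg row and 1516, 543 and 814 for the others, since mitochondrial counts enter it. Single-gene values were followed only for called members named by the stated rule. Each such value was counted once for every run. The call was lost in 39 of 288 counts with 1 library left out and in 5 of 288 under another setting. Every call in 2 comparisons was lost in at least 1 run: the 5 lower in SynapTRAP than SNF, and the 1 higher and 4 lower in TRAP than WCH. Other called Pcdhb genes are not in these counts. Among them, Pcdhb4 and Pcdhb6 lost their call somewhere in SNF against WCH. Pcdhb4, Pcdhb5, Pcdhb8, Pcdhb9 and Pcdhb12 did so in SynapTRAP against TRAP. Pcdhb genes had as few as 3 counts in a library, which limits their precision.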
